A study of Mus musculus with 3 samples.

Results

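Protein kinase C (PKC) genes were followed in RNA-seq of mouse melan-a cells. They were chosen by name from the 3 classes of the family and not by level, though earlier results of these data were known. All 8 were found among the 22698 Ensembl genes that were quantified. Of the conventional class (cPKC), *Prkca* and *Prkcb* were followed, and of the atypical class (aPKC) *Prkci* and *Prkcz*. *Prkcd*, *Prkce*, *Prkch* and *Prkcq* were followed of the class (nPKC) that needs diacylglycerol but not calcium. melan-a is an immortalized melanocyte line of C57BL/6J background, and its 3 replicates, labelled 1, 3 and 4, form a single group with no treated or control counterpart. All 3 were grown with 10% fetal bovine serum, 200 pM cholera toxin and 200 nM 12-O-tetradecanoylphorbol 13-acetate (TPA), a phorbol ester that activates PKC. No culture without TPA was analysed here, so none of the levels below can be read as an effect of TPA. The submitters call the replicates bioreplicates and the labels do not say how they were derived, so every error given here measures the spread between these 3 samples.

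PKCs are serine/threonine kinases that are held inactive by their own regulatory part until lipids release them. The cPKC isoforms need calcium and diacylglycerol, the nPKC isoforms need diacylglycerol but not calcium, and the aPKC isoforms respond to neither and are controlled by protein partners such as PAR6. Phorbol esters take the place of diacylglycerol on the C1 domains of cPKC and nPKC isoforms. Cultured mouse melanocytes are commonly grown in phorbol ester because it supports their proliferation, and long exposure is known to remove the responsive PKC proteins by degradation, a step that RNA levels do not show. In human melanocytes, PKC-beta is known as the isoform that phosphorylates tyrosinase.

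The values are FPKM, the reads of a gene per kilobase of its length and per 1000000 reads of the library. Library sizes were scaled by the TMM method. Levels were compared between genes per length, though the length used for the values is not given. Differences between replicates also followed the GC content of transcripts, and its bearing on ratios between genes was not tested. The scaled sizes were estimated at 46900000 to 66400000 reads, which need not be the numbers sequenced. At these sizes, 3 reads on a gene of 1 kb came to 0.045 to 0.064 FPKM. Of 12 melanocyte markers, 11 were at or above 1 FPKM in all replicates, led by *Tyrp1* at 3144 ± 434 FPKM (SD, n = 3), and the lowest was *Kit* at 0.68 ± 0.095 FPKM. Markers of other cells were mostly near 0: at least 1 FPKM in all replicates was reached by 0 of 7 keratinocyte, 1 of 7 fibroblast (*Col1a1*, 1.54 FPKM), 0 of 8 leukocyte and 1 of 8 neuronal genes (*Tubb3*, 216 FPKM). The labels describe the cells as derived from Ink4a-ARF-/- mice. *Cdkn2a*, the gene of both products, was at 19.24, 16.49 and 24.32 FPKM in replicates 1, 3 and 4. A value for the whole gene does not say which exons the reads came from, so it does not check which part of the locus is deleted.

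The promoters of the highest gene of the family, of the highest cPKC gene and of the gene listed at 0 are printed here because the study is about TFAP2A, and their letters can be read against the palindromic motif GCCNNNGGC. This form is stricter by its last base than the consensus GCCNNNGG that the study used. The sequences are from RefSeq (GRCm38.p6), run from 250 bases before to 50 bases after the start, are written 5′ to 3′ on the strand of the gene, and each matched mm9 exactly at 1 place. Capitals mark GCCNNNGGC. The *Prkcq* promoter lies on the plus strand at chr2:11093759-11094058, the *Prkca* promoter on the minus strand at chr11:108205153-108205452 and the *Prkcb* promoter on the plus strand at chr7:129432389-129432688.
Prkcq: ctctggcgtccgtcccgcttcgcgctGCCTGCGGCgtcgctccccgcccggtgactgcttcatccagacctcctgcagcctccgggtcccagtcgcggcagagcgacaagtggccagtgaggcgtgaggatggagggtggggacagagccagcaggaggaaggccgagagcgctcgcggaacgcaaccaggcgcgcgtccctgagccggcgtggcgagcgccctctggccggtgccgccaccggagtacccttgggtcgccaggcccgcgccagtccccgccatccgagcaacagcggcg
Prkca: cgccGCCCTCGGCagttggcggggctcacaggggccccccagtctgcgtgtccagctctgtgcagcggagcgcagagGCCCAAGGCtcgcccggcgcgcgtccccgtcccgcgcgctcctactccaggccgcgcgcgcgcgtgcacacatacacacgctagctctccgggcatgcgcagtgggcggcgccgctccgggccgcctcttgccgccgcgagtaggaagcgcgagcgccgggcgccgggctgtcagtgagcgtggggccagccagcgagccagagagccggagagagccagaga
Prkcb: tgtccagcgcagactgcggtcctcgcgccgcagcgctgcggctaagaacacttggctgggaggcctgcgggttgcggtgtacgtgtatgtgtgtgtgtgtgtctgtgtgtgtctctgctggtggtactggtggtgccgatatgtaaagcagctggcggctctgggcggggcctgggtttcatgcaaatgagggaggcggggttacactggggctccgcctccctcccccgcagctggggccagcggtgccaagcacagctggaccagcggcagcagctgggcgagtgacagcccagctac

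The motif occurred once in the *Prkcq* window, 2 times in the *Prkca* window and not in the *Prkcb* window. The matches did not follow the levels, since the *Prkci* window had 0 and 1 of the 3 windows of the lower *Prkcz* had 1. The shorter GCCNNNGG, counted on both strands after the longer form had been looked at, occurred 5 times in the *Prkcq* window, 4 times in the *Prkca* window and 3 times in the *Prkcb* window, so with it the *Prkcb* window no longer stood apart. It was in 8 of the 9 windows of these genes, against 54.8% of all windows, and each GCCNNNGGC holds it on both strands. The table of promoters held 9 windows for 6 of the 8 genes (*Prkca*, *Prkcb*, *Prkcd*, *Prkci*, *Prkcq* and *Prkcz*), and 4 of the 9 windows carried GCCNNNGGC, against 16.6% of all 32851 windows of the same length. GGGCGG, a GC box, was present in 7 of 9 (35.7% of all windows), and the cyclic AMP element TGACGTCA in 1 of 9, an internal start of *Prkcz* (1.79%). TGANTCA, the AP-1 motif that is also the phorbol ester response element, was in 0 of 9 (7.81%), and the M-box core CATGTG was in 0 of 9 (14.2%). All motifs were searched on both strands, and the GCCNNNGGC and GGGCGG searches can overlap. The *Prkcb* window had 65.3% G and C and 19 CpG dinucleotides, against 73% and 37 for *Prkcq* and 75.3% and 42 for *Prkca*. All 3 were above the median of 52.7% G and C over all windows. The shares over all windows were not matched for G and C content, and its bearing on the motif counts was not tested. The motif counts are matches of letters and say nothing about binding.

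Transcripts of 6 of the 8 PKC genes were at or above 1 FPKM in all 3 replicates, a level reached by 44.1% of all genes quantified. From high to low mean these were *Prkcq*, *Prkci*, *Prkca*, *Prkcd*, *Prkce* and *Prkcz*. *Prkch* was just above the level of a few reads, and *Prkcb* was listed at 0 in every replicate. Each class therefore had at least 1 expressed gene, with 1 of 2 cPKC, 3 of 4 nPKC and 2 of 2 aPKC genes at or above 1 FPKM throughout.

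**Figure D1:**
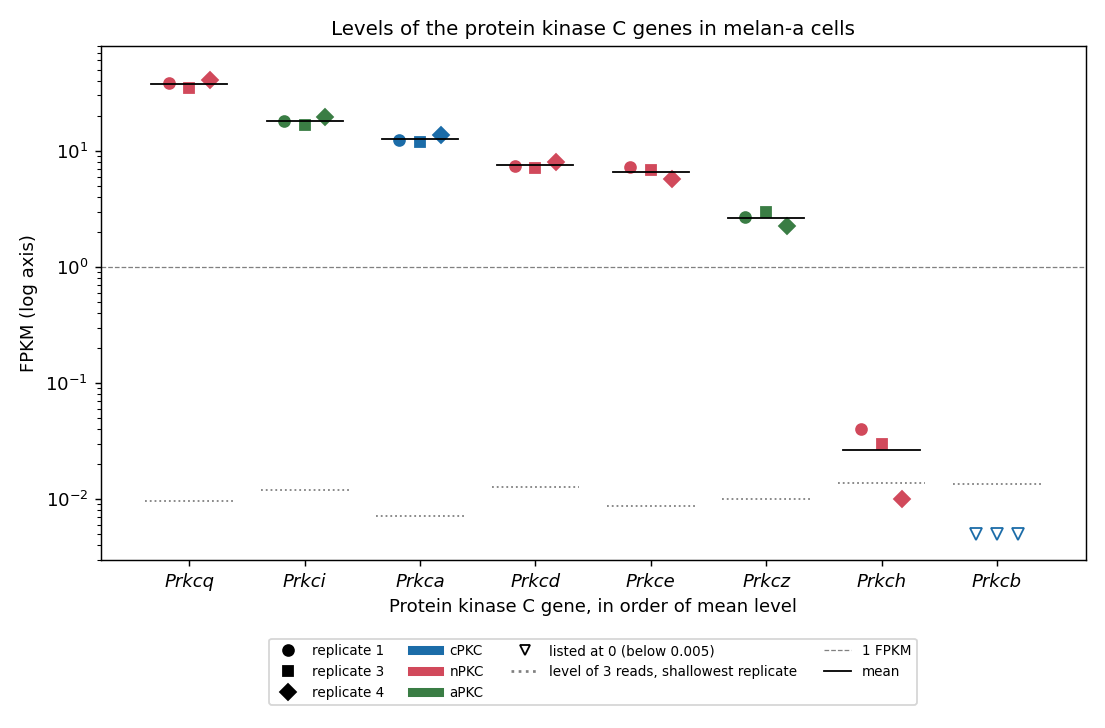
FPKM (log axis) of the 8 PKC genes in order of mean level, with a symbol for each replicate and color for the class. Lines mark the mean, and dotted lines the level of 3 reads in the shallowest replicate by scaled size. The 3 replicates of *Prkcq* lie above all values of every other gene, and *Prkcb* is drawn as open triangles at 0.005 FPKM because it was listed at 0.

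Among the nPKC isoforms, *Prkcq* encodes PKC-theta, which is best known for signalling downstream of the T cell receptor. Its locus in mm9 is on chromosome 2 (plus strand, 11093740 to 11222853). Replicates 1, 3 and 4 had 38.25, 35.02 and 40.51 FPKM, with a mean of 37.9 ± 2.76 FPKM (SD, n = 3). *Prkcq* was thus at rank 1802 of 22698 genes, with about 10842 to 17756 reads behind each value. No replicate of *Prkcq* overlapped any replicate of the other 7 genes. Of the 8 leukocyte markers, 5 were listed at 0 in all replicates, among them *Cd3e*, *Cd4* and *Ptprc*, and their summed level was 0.56 to 0.71 FPKM, nearly all from *Lck* (0.63 ± 0.067 FPKM).

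*Prkcd* encodes PKC-delta, a broadly expressed isoform with roles in apoptosis, and lies on the minus strand of chromosome 14 (31408542 to 31439396). It was at 7.46, 7.12 and 8.03 FPKM in replicates 1, 3 and 4, a mean of 7.54 ± 0.46 FPKM (SD, n = 3). *Prkce* encodes PKC-epsilon, known as an oncogene when overexpressed in fibroblasts, and lies on the plus strand of chromosome 17 (86567125 to 87057259). It was at 7.26, 6.85 and 5.67 FPKM, a mean of 6.59 ± 0.83 FPKM (SD, n = 3). The replicates of *Prkcd* and *Prkce* overlapped in part, since replicate 1 of *Prkce* was above replicate 3 of *Prkcd*.

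*Prkch* encodes PKC-eta, an isoform of differentiating epithelia such as the epidermis, and lies on the plus strand of chromosome 12 (74685783 to 74879172). Its values of 0.04, 0.03 and 0.01 FPKM in replicates 1, 3 and 4 correspond to about 10, 6.5 and 3.1 reads. Rounding to 2 decimals leaves these uncertain by 1.2, 1.1 and 1.5 reads either way. In replicate 4 the listed value was therefore near the level of 3 reads, 0.0098 FPKM, and may lie below it. The summed level of the 7 keratinocyte markers was 0.43 to 0.77 FPKM. Most of it came from *Krt10*, at 0.51, 0.29 and 0.67 FPKM in replicates 1, 3 and 4, above *Prkch* in each. *Krt5*, *Krt14* and *Trp63* were each at 0.04 FPKM or below in every replicate. In bulk RNA a few cells with much *Prkch* cannot be told apart from many cells with little.

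Among the cPKC isoforms, *Prkca* encodes PKC-alpha, which is expressed in most tissues, and lies on the minus strand of chromosome 11 (107794701 to 108205242). It had 12.37, 11.92 and 13.67 FPKM in replicates 1, 3 and 4, a mean of 12.7 ± 0.91 FPKM (SD, n = 3). All 3 values lay above those of *Prkcd* and below those of *Prkci*. Of its 8992 exon bases, 30 overlap exons of *Apoh* on the other strand, and the other 7 genes share no exon base with another annotated gene.

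*Prkcb* encodes PKC-beta, the isoform known to phosphorylate tyrosinase, and lies on the plus strand of chromosome 7 (129432265 to 129777916). It was listed at 0 in all 3 replicates, as were 31.4% of all genes. Because the values were rounded to 2 decimals, a listed 0 can hide up to 1.6 reads on this gene in replicate 4. Its level was thus below 0.005 FPKM. Its 3-read level was 0.0095 to 0.013 FPKM. At this depth *Prkcb* was not detectable, which is not the same as absent. *Tyr*, the gene of tyrosinase, was at 72.53, 59.2 and 74.43 FPKM in the same libraries.

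Among the aPKC isoforms, *Prkci* encodes PKC-iota (also called PKC-lambda in mouse), a kinase of the PAR polarity complex, and lies on the plus strand of chromosome 3 (30894669 to 30951663). It had 18.07, 16.62 and 19.53 FPKM, a mean of 18.1 ± 1.46 FPKM (SD, n = 3), the second highest level of the 8 genes. *Prkcz* encodes PKC-zeta and, from an internal start used in brain, a short form that lacks the regulatory part. It lies on the minus strand of chromosome 4 (154634238 to 154735470) and had 2.7, 3 and 2.27 FPKM, a mean of 2.66 ± 0.37 FPKM (SD, n = 3). The deposited values are totals per gene and do not separate these forms.

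The order of the levels was compared between neighbours within each library, over the 6 pairs in which both genes were above 0. Neighbours were taken as different when the order held in all 3 replicates and the mean log2 ratio exceeded its SD over replicates. This was the case for 5 of the 6 pairs. The pairs were formed from the means of these same replicates, so the rule describes the order and is not an independent test. *Prkcq* was 2.1-fold above *Prkci* (log2 ratio 1.07 ± 0.02, SD, n = 3), *Prkci* was 1.43-fold above *Prkca* (0.51 ± 0.03) and *Prkca* was 1.68-fold above *Prkcd* (0.75 ± 0.02). *Prkcd* and *Prkce* could not be told apart, with log2 ratios of 0.04, 0.06 and 0.5 in replicates 1, 3 and 4 and a mean of 0.2 ± 0.26. *Prkce* was 2.48-fold above *Prkcz* (1.31 ± 0.12), and every value of *Prkcz* was above every value of *Prkch*. The size of that last difference was set by the pseudocount, with log2 ratios of 6.28, 4.44 and 1.83 at 0.01, 0.1 and 1 FPKM, so no fold is given. *Prkcb*, at 0, entered no ratio. The exact paired permutation test (sign flips, two-sided) gave p = 0.25 for each of the 6 pairs, also after adjustment, which is the smallest value that 3 replicates allow. With the length of the longest transcript in place of all exons, *Prkca* and *Prkcd* came out nearly equal, at 13.5 and 13.2 FPKM, because the exons of *Prkcd* join to 4983 bases and its longest transcript has 2851. With that length *Prkcd* lay above *Prkce* by a log2 ratio of 0.79, more than the SD of 0.26, so the call on this pair depends on the length behind the FPKM.

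The classes were compared by the sum of their genes among these 8, to see which kind of PKC the transcripts of these cells mostly encode. The nPKC genes summed to 53.01, 49.02 and 54.22 FPKM in replicates 1, 3 and 4, the aPKC genes to 20.77, 19.62 and 21.8 FPKM and the cPKC genes to 12.37, 11.92 and 13.67 FPKM, all of it from *Prkca*. The values of the 3 classes did not overlap. The nPKC sum was 4.12-fold above the cPKC sum (log2 ratio 2.04 ± 0.06, SD, n = 3) and 2.51-fold above the aPKC sum (1.33 ± 0.02), and the aPKC sum was 1.64-fold above the cPKC sum (0.71 ± 0.04). The order was the same in 3 of 3 replicates, and the exact paired permutation test (two-sided) again gave p = 0.25 for all 3 pairs before and after adjustment.

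In each class a single gene held most of the sum. Beside *Prkca*, the only cPKC gene of the pair above 0, *Prkcq* made up 72.8 ± 1.7% of the nPKC and *Prkci* 87.1 ± 2.4% of the aPKC sum (SD, n = 3). The place of nPKC above aPKC rested on *Prkcq*, since without it, in a comparison added after seeing the data, the nPKC sum was below the aPKC sum with a log2 ratio of -0.55. Most of its distance from cPKC did too, as the log2 ratio of nPKC over cPKC fell from 2.04 to 0.16 without *Prkcq*. With each gene of a class weighted equally on the log2 scale, nPKC was also below aPKC (-1.29), and both lay further above cPKC, where *Prkcb* was at 0. The cPKC and nPKC genes together, which encode the isoforms that phorbol ester can activate, held 75.9%, 75.6% and 75.7% of the FPKM of the 8 genes in replicates 1, 3 and 4.

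**Figure D2:**
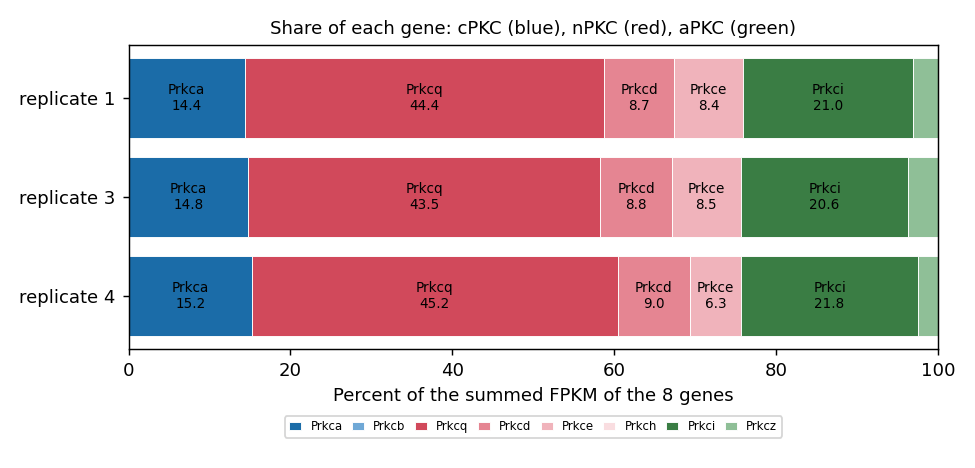
Share of each PKC gene in the summed FPKM of the 8 genes (percent), with a bar for each replicate and the classes in blue (cPKC), red (nPKC) and green (aPKC). *Prkcq* takes 43.5% to 45.2% in every replicate, and the share of *Prkce* is lowest in replicate 4 at 6.32%.

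The replicates of the expressed PKC genes differed little. For the 6 genes at or above 1 FPKM throughout, the SD of log2 FPKM over the replicates had a median of 0.11, against 0.17 over all 10011 genes of that level. *Prkcq*, *Prkci*, *Prkca* and *Prkcd* were highest in replicate 4 and lowest in replicate 3, an order shared by 37.2% of the genes of that level. *Prkce* and *Prkcz* were lowest in replicate 4. Replicate 4 thus exceeded replicate 3 for 4 of the 6, against 48.5% of the genes of that level. The differences between these libraries followed the GC content of transcripts, with a Spearman's rho of -0.78 between it and the log2 ratio of replicate 4 over replicate 3. This rho is a description over 10006 genes that share the same libraries. *Prkci*, *Prkca* and *Prkcq*, whose longest coding transcripts have 44.7%, 46.4% and 47.8% G and C, lay near the median of genes of their GC content. *Prkcd*, at 52.2%, was higher in replicate 4 by a log2 ratio of 0.17, a value reached by 12.2% of the 1040 genes within 1 percentage point of its GC content. *Prkcz*, at 52.4%, was lower in replicate 4 by a log2 ratio of -0.4, where genes within 1 percentage point of its GC content had a median of -0.13. *Prkce*, at 50.2%, was lower in replicate 4 by a log2 ratio of -0.27 where the median of such genes was 0, and 88% of them had a ratio at or above its own. Before the trend was taken off, *Prkcz* had the largest SD of the 6 genes (0.2), and afterwards *Prkce* did (0.19). After the trend on GC content was taken off, the median SD was 0.098 for the 6 genes and 0.104 for all genes.

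**Figure D3:**
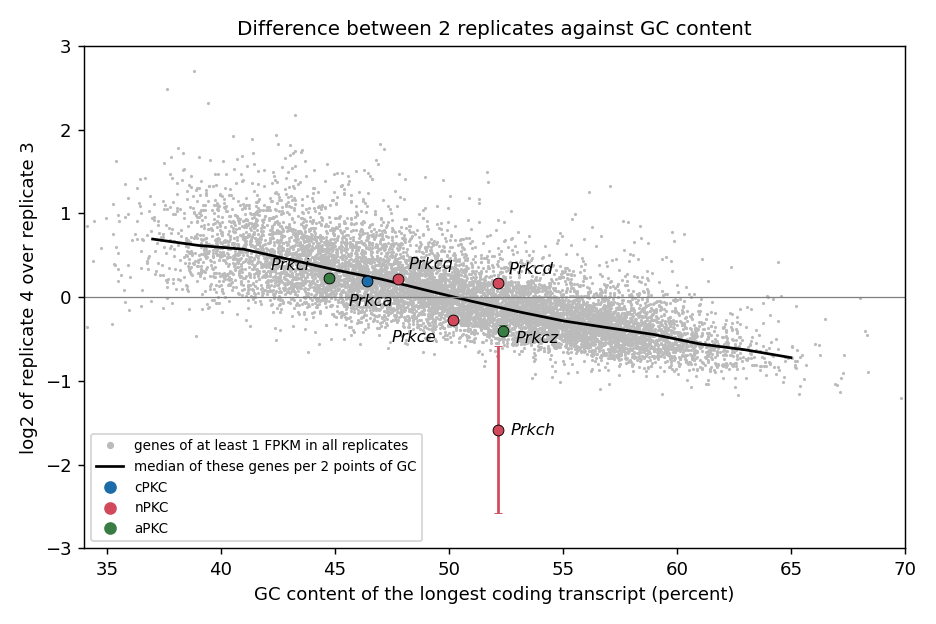
Log2 ratio of replicate 4 over replicate 3 against the GC content of the longest coding transcript (percent), with genes of at least 1 FPKM in grey, their median as a line and the PKC genes in color, with bars for the counting error (1 SE) from the estimated reads. Most PKC genes lie near the grey band, and *Prkch*, at -1.58, rests on few reads. *Prkcb*, listed at 0, is not drawn.

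The genes around PKC were taken from 9 lists with 82 genes in all, of which 48 (58.5%) were at or above 1 FPKM in all replicates, against the 44.1% of all genes. Diacylglycerol is made by phospholipase C downstream of Gq-class G proteins. Of the 4 Gq-class alpha subunits, *Gna11* (67.5 ± 15.8 FPKM, SD, n = 3) and *Gnaq* (23 ± 1.23 FPKM) passed 1 FPKM, and the lowest was *Gna14* at 0.23 FPKM. Of 13 phospholipase C genes, 4 passed. *Plcb3*, of the type that Gq activates, led with 52.6 ± 1.92 FPKM, and *Plcz1*, the sperm form, was lowest at 0.0033 FPKM, below the level of 3 reads on a gene of 1 kb. Diacylglycerol is removed by diacylglycerol kinases, of which 5 of 10 passed, with *Dgkz* highest at 15.1 ± 3.19 FPKM and *Dgkb* listed at 0.

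PKCs must be folded and phosphorylated before lipids can activate them. All 10 genes of that step and of its reversal passed 1 FPKM, from the chaperone *Hsp90ab1* at 872 ± 13.8 FPKM to the phosphatase *Phlpp2* at 1.61 FPKM. Among them, *Pdpk1*, the kinase that phosphorylates the activation loop, was at 7.54 ± 0.92 FPKM. Of 9 anchoring proteins 7 passed. *Gnb2l1*, the gene of the receptor for activated C kinase RACK1, led with 663 ± 104 FPKM, and *Prkcdbp*, whose product binds PKC-delta, and *Akap5* were lowest at 0.01 FPKM. Of 10 genes of the polarity complex of aPKC and its partners, 8 passed. *Sqstm1*, a scaffold of aPKC, was highest at 410 ± 58.8 FPKM, and *Pard3b*, which did not pass, was lowest at 0.12 FPKM. Of 11 substrates 6 passed, led by the adducin gene *Add1* at 77.4 FPKM, with *Marcks*, the classical PKC substrate, at 55.7 ± 3.72 FPKM and *Nrgn*, a neuronal substrate, listed at 0. The related PKD and PKN kinases passed in 5 of 5 cases, from *Pkn2* at 9.32 ± 2.12 FPKM to *Prkd1* at 1.71 FPKM.

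PKCs are not the only proteins that bind phorbol ester. Of the 10 genes of the chimaerin, RasGRP and Munc13 families, 1 passed 1 FPKM in all replicates, against 44.1% of all genes. This was *Rasgrp3*, a Ras activator that diacylglycerol recruits, with 17.43, 14.6 and 21.86 FPKM. *Rasgrp1* and *Rasgrp4* were listed at 0. When these 10 genes were set beside the 6 cPKC and nPKC genes, the 3 PKD genes and *Dgkb* and *Dgkg*, *Prkcq* had the highest level of the 21. It held 37.2 ± 0.072% of their summed FPKM (SD, n = 3), followed by *Rasgrp3* with 17.5 ± 2.33% and *Prkca* with 12.4 ± 0.31%. The 21 were taken by family, and not every member binds phorbol ester, the product of *Unc13d* for example lacking a C1 domain. Of the 21, 8 were at or above 1 FPKM throughout, 4 of them PKC genes, against 44.1% of all genes. The median over all 21 was 0.39 FPKM.

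**Figure D4:**
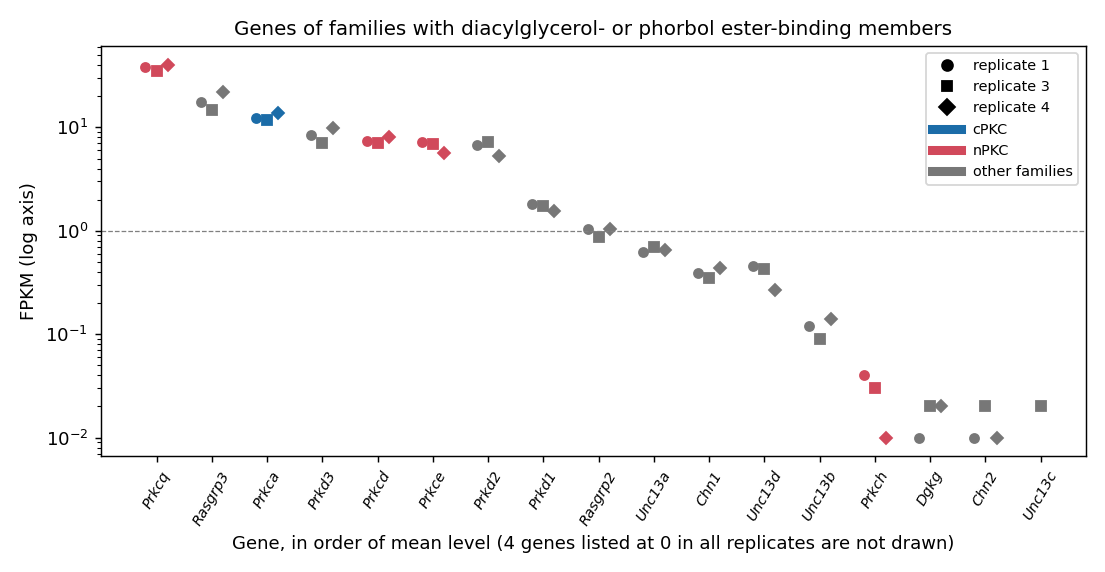
FPKM (log axis) by replicate of the genes of families with diacylglycerol- or phorbol ester-binding members, in order of mean level, with cPKC in blue, nPKC in red and other families in grey. *Prkcq* is first and *Rasgrp3* second at 17.96 FPKM. Values of 0 are not drawn, among them the genes *Prkcb*, *Dgkb*, *Rasgrp1* and *Rasgrp4* and 2 replicates of *Unc13c*.

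With 3 samples of a single condition no pattern across conditions can be compared, so likeness was measured as the distance between genes on log2(FPKM + 1) over the 3 replicates, which reflects level alone. Among the nearest genes were *Pafah1b2* for *Prkcq* (a distance of 0.066), *1110001A16Rik* and *Exosc1* for *Prkca* (distances of 0.024 and 0.025), and *Cyth3* and *Scamp1* for *Prkci* (0.031 and 0.046).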

How the data were processed

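RNA-seq libraries of 3 melan-a replicates were made with a stranded poly(A) kit. According to the study's methods and the submitters' processing notes, the authors trimmed the reads, aligned them to mm9 with STAR 2.3.0e, removed rRNA reads and counted the rest per Ensembl gene with HTSeq 0.5.3p3. The deposited values are FPKM with TMM scaling, given to 2 decimals. The length used for them is not given in the sources used here, and no counts were analysed.

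Symbols, positions and lengths came from the mm9 annotation of Ensembl release 65, an earlier release than the one the authors counted with, which named 22324 of the 22698 genes. Library sizes were estimated as those at which low FPKM values of genes of at most 600 bases with 1 transcript give whole reads (53900000, 46900000 and 66400000 for replicates 1, 3 and 4, from 136, 127 and 162 genes, with mean distances of 0.051, 0.052 and 0.072 reads from whole numbers). For genes with several transcripts, joined exons came closer to whole reads (0.15) than the longest transcript (0.2), so reads were estimated with joined exons. In replicate 4 alone they did not (0.18 and 0.17), so its read numbers for genes with several transcripts are less certain. The estimated sizes include the TMM scaling, and estimated reads and the 3-read levels cover counting error only.

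Genes and classes were compared within libraries by log2 ratios (pseudocount 0.01 FPKM for single genes) and exact sign-flip permutation tests, adjusted by the Benjamini-Hochberg method over 3 class pairs and 6 neighbour pairs. The GC trend was a LOWESS fit with a fraction of 0.3. The members, lists and alternatives were chosen with earlier results of these data known. Genes named were the 8 members, the highest and lowest of each list and those listed at 0, *Cdkn2a*, *Tyr* and the 2 nearest in level to the highest member of each class. *Gnaq*, *Pdpk1*, *Marcks*, *Akap5* and single markers were named after their values were seen. Protein sequences were not used here, and 1 planned member and 2 other genes are not reported here. The scripts were tested on simulated data under Python 3.11.15 (scipy 1.17.1, statsmodels 0.14.6, numpy 2.4.6, pandas 2.3.3, matplotlib 3.10.9).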

Additional observations from a re-analysis of the deposited data

How the results depend on the processing

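No paired analysis was possible because the 3 replicates form 1 group, so no replicate number is shared between groups, and the sign-flip tests set genes or classes against each other within a library. The order of the classes, the order of neighbouring genes and the count of 6 genes at or above 1 FPKM kept their direction or value, though not always their size, with the median over replicates, with each replicate left out, with each replicate rescaled to sum to 1000000 and with the length of the longest transcript. The comparison of nPKC with aPKC turned round in 2 other settings. The ratio of nPKC over cPKC moved in size in both, and aPKC over cPKC, which holds no *Prkcq*, only in the first. With the mean of log2(FPKM + 0.01) over the genes of a class in place of their sum, the log2 ratio of nPKC over aPKC was -1.29, since that mean gives the low *Prkch* the same weight as *Prkcq*. In that setting nPKC over cPKC was 2.99 and aPKC over cPKC 4.28, against 2.04 and 0.71 for sums, and both rest on the pseudocount given to *Prkcb*. Without *Prkcq*, a setting chosen after seeing the data, nPKC over aPKC was -0.55 and nPKC over cPKC 0.16. With a minimum of 0.1 in place of 1 FPKM, 8 phospholipase C genes, 4 Gq-class subunits and 5 genes of the other phorbol ester receptor families passed. Across single genes, 12 values moved by more than the SD between replicates, all after rescaling or with the longest transcript. The other 43 did not, but they include ranks, which have no SD, and *Prkcb*, at 0 in every setting. Rescaling put *Prkcq* at 100.9 and the longest transcript put it at 63.1. The rounding of the values and the depth limit *Prkcb* and *Prkch*, and 3 replicates cannot reach p = 0.05 in the exact test.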
